A study of Mus musculus with 12 samples.

Results

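The genes described are *Nr1i3*, which encodes the constitutive androstane receptor (CAR), *Nr1i2*, which encodes the pregnane X receptor (PXR), *Rxra*, which encodes their shared partner RXRα, and *Por*, which encodes cytochrome P450 oxidoreductase. They are 4 of the 48795 genes in the table, chosen by their symbols with the group values of these livers known, so their own differences between groups are given as descriptions with no test. Liver RNA was sequenced from 12 female mice aged 4 months, littermates matched for sex and age and kept on normal chow. The 4 groups of 3 mice were *Nts*+/+ fed ad libitum (mice 254, 257 and 323), *Nts*+/+ fasted for 22 h (mice 265, 282 and 322), *Nts*-/- fed (mice 277, 303 and 319) and *Nts*-/- fasted for 22 h (mice 284, 290 and 295). *Nts* encodes the gut peptide neurotensin, and the *Nts*-/- mice are whole-body knockouts bred from heterozygous parents, so a difference between genotypes in liver need not arise in liver. Whole liver was used, so fewer cells of a type and less RNA per cell cannot be told apart.

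CAR and PXR are nuclear receptors that hepatocytes use to sense drugs, bile acids and other foreign or endogenous lipophilic compounds. Each pairs with RXRα on DNA to raise transcription of P450 enzymes, conjugating enzymes and transporters, and *Cyp2b10* and *Cyp3a11* are their best known mouse targets. CAR is held in the cytoplasm by a chaperone complex until an activator releases it, whereas PXR is switched on by binding its ligands. POR sits on the endoplasmic reticulum and hands electrons from NADPH to every microsomal P450.

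Counts per mouse totalled between 21999656 and 45273081, so that 3 counts corresponded to 0.0663 to 0.136 CPM (counts relative to the total of a library). *Nts* itself had counts only in livers labelled *Nts*-/-, which the labels alone do not explain, and the reason was not tested. It had 0 counts in all 6 *Nts*+/+ livers, 46, 40 and 15 counts in the fed *Nts*-/- livers, and 12, 4 and 18 counts in the fasted ones, so genotypes are named here as the libraries are labelled and any direction between them rests on those labels. Feeding state followed the labels, with *Fgf21*, a fasting hormone, higher and *Srebf1*, *Fasn* and *Pnpla3*, of lipid synthesis, lower in the fasted mice of both genotypes. Summed hepatocyte markers (7 genes) spanned 110500 to 144800 CPM and overlapped between all groups, with *Alb* alone at 87180 to 114600 CPM. With fasting, edgeR called 1 of them higher and 1 lower in each genotype. Of all genes tested, it called 18.1% in *Nts*+/+ and 16.8% in *Nts*-/- livers. In *Nts*+/+ livers *Apoa1* averaged 5866 CPM fed and 9723 CPM fasted, whereas *Ttr* averaged 6234 and 4024 CPM. Of markers of other cells, the Kupffer cell list (5 genes) summed to 388 to 445 CPM in fed *Nts*+/+ mice and to 195 to 343 CPM in all other mice, the endothelial list (5 genes) to 123 to 179 CPM in fed and 103 to 124 CPM in fasted mice, and the adipocyte list to 0.147 to 1.24 CPM in fed and 39.9 to 70.9 CPM in fasted mice, all but wholly through *Cidec*, with *Lep* at 0. In *Nts*+/+ mice the stellate cell list (5 genes) summed to 218 to 241 CPM when fed and 181 to 205 CPM when fasted, and the lymphocyte list (5 genes) to 15.2 to 16.1 CPM and 9.39 to 11.1 CPM, while the sums of both overlapped in *Nts*-/- mice. By edgeR, 2 of the 5 stellate cell markers fell with fasting in *Nts*+/+ (median log2 fold change -0.59) and 4 in *Nts*-/- livers (median -0.94). Of the 5 endothelial markers, 1 rose and 1 fell with fasting in *Nts*+/+ livers, and 1 fell in *Nts*-/- livers. In *Nts*+/+ livers *Clec4g* averaged 63.1 CPM fed and 28.4 CPM fasted, whereas *Lyve1* averaged 6.12 and 13.75 CPM. The cholangiocyte list (4 genes, 3 tested) summed to 4.34 to 6.03 CPM in fed and 2.84 to 4.16 CPM in fasted *Nts*-/- mice, where 1 fell, and overlapped in *Nts*+/+ mice. The part of these cells in the results was not tested. The intestinal list stayed at or under 0.364 CPM, with *Sis* and *Cdx1* at 0.

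The 250 bases before the annotated start are shown for *Nr1i3* and *Por*, whose transcripts were the ones that differed with feeding, and for *Nr1i2*, which did not separate the groups. They come from RefSeq on GRCm38.p6, at chr1:171213720-171213969 on the plus strand for *Nr1i3*, chr5:135688895-135689144 on the plus strand for *Por* and chr16:38294825-38295074 on the minus strand for *Nr1i2*. Capitals mark the motif matches. In *Nr1i3* these are an E-box (CACGTG) at 244 bases before the start and an AP-1 site (TGAGTCA) at 109 bases before it, and in *Por* they are 4 GC boxes (GGGCGG, or CCGCCC on the other strand).
Nr1i3: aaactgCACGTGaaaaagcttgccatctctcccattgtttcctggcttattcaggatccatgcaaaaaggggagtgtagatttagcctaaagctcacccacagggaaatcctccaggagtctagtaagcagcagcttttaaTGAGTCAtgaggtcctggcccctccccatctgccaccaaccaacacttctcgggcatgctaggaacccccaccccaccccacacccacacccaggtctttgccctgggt
Por: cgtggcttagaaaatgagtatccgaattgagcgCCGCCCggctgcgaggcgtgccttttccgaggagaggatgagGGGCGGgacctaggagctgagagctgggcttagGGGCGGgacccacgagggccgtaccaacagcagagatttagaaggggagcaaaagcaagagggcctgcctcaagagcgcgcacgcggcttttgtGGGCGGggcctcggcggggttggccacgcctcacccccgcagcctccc
Nr1i2: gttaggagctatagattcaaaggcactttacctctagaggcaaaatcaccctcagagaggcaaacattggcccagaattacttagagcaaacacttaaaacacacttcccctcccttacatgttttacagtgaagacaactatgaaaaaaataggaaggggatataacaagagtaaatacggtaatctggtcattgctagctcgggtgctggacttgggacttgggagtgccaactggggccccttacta

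The search covered both strands of each window for 9 motifs. These were the nuclear receptor half-site AGGTCA (in 14% of 32851 mouse windows of the same length), the half-site AGTTCA of CAR and PXR elements (11.8%), the cAMP response element TGACGTCA (1.55%), the HNF4 site CAAAGTCCA (0.384%), the E-box CACGTG (6.02%), the AP-1 site TGANTCA (6.75%), the D-box TTANGNAA (10.3%), the GC box GGGCGG (32.7%) and the glucocorticoid half-site AGAACA (16.1%). The *Nr1i2* window held none of these letters. *Rxra* has 2 starts in the table, of which one has 3 GC boxes and the other 2 half-sites of the AGGTCA type. The RefSeq start of *Por* lies inside the deposited span of the gene, which begins further upstream at position 135670033. A match describes the letters in the window and not binding there.

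*Nr1i3* (ENSMUSG00000005677, chr1:171213970-171220701, GRCm38) was the member whose level set all 4 groups apart. In fed *Nts*+/+ livers it stood at 191, 148 and 139.5 CPM after scaling between libraries by the trimmed mean of M values (TMM), and in fasted *Nts*+/+ livers at 229.9, 226 and 219 CPM. In fed *Nts*-/- livers it stood at 91.9, 93.4 and 78.9 CPM, and in fasted *Nts*-/- livers at 301, 307 and 236 CPM. The 4 groups did not overlap, and their order from low to high was *Nts*-/- fed, *Nts*+/+ fed, *Nts*+/+ fasted and *Nts*-/- fasted. The *Nts*-/- mice were thus the lowest when fed and the highest when fasted, with the *Nts*+/+ mice between them.

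Fasted against fed, *Nr1i3* was 1.41-fold higher in *Nts*+/+ livers, a log2 fold change of 0.49 ± 0.15 (SE, n = 3 against 3; 95% interval 0.18 to 0.81). In *Nts*-/- livers it was 3.19-fold higher, a log2 fold change of 1.68 ± 0.15 (1.35 to 2.00). The fasting response was larger in the *Nts*-/- mice by 1.18 ± 0.21 on the log2 scale (0.73 to 1.63). Between genotypes, the log2 fold change of *Nts*-/- against *Nts*+/+ was -0.86 ± 0.15 in fed livers (-1.18 to -0.54) and 0.32 ± 0.15 in fasted livers (0.0068 to 0.64). The fasted genotype difference was the smallest of these next to its interval, and its lower end was close to 0. The interval is that of the edgeR model of all 12 mice. Since *Nr1i3* was picked with these values known, it describes the uncertainty of the log2 fold change and is no test.

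**Figure D1:**
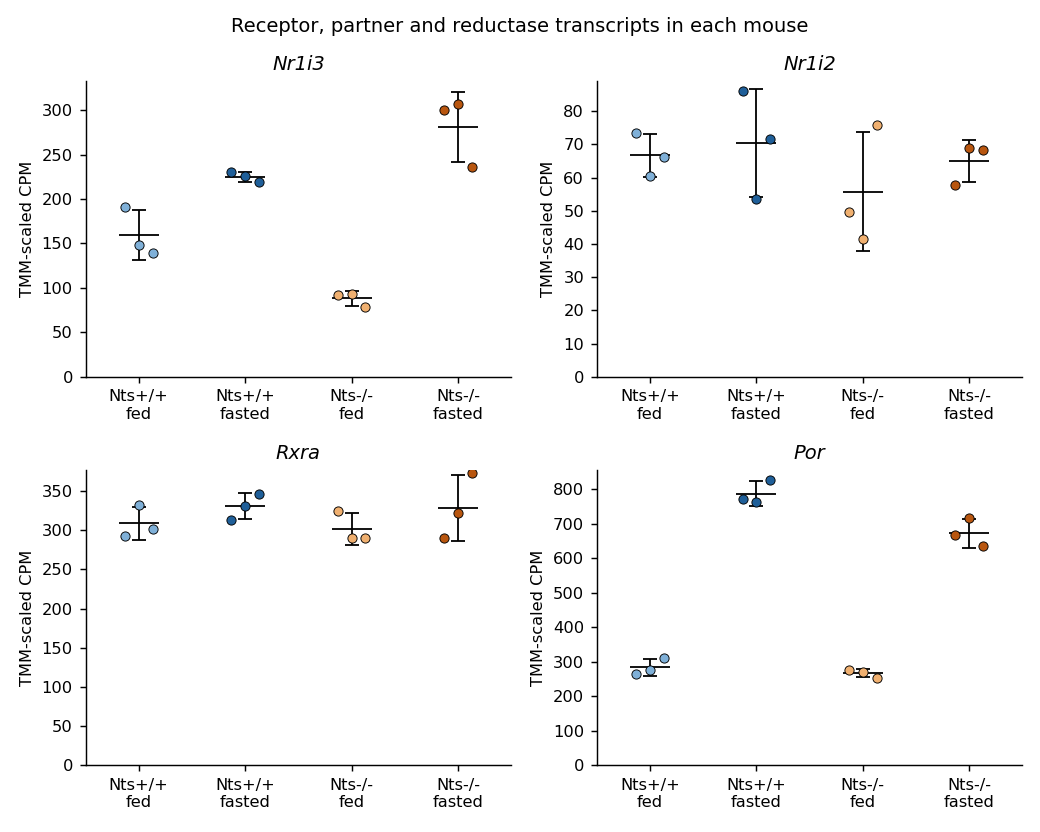
TMM-scaled CPM of Nr1i3, Nr1i2, Rxra and Por in each of 12 mice, by genotype label and feeding state. Points are mice, horizontal bars are group means and whiskers 1 SD (n = 3). Nr1i3 separates all 4 groups, with means of 159.6, 225, 88.1 and 281 CPM from left to right, Por separates fed from fasted mice, and Nr1i2 and Rxra overlap between groups.

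The Nr1i3 count shares its ground with another gene. *Tomm40l*, which encodes a relative of the import pore protein of the outer mitochondrial membrane, lies on the opposite strand and its deposited span covers 4691 bp of *Nr1i3*. The sources used here do not state that counting used strand, so reads from both transcripts cannot be told apart with certainty, and the *Nr1i3* counts are fractional, from 1958.82 to 9991.11 per mouse. *Tomm40l* stood at 20.9, 16.4 and 14.1 CPM in fed *Nts*+/+ livers, 8.16, 5.85 and 5.78 CPM in fasted *Nts*+/+ livers, 13.3, 11.8 and 25.5 CPM in fed *Nts*-/- livers and 7.92, 18.1 and 6.19 CPM in fasted *Nts*-/- livers. It made up 2.52% to 24.4% of the sum of both genes, the highest share being that of fed *Nts*-/- mouse 319.

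The sum of both genes does not depend on how their reads were split. It averaged 177 ± 31.2 CPM (SD, n = 3) in fed and 231 ± 6.86 CPM in fasted *Nts*+/+ livers, and 105 ± 0.449 CPM in fed and 292 ± 43.9 CPM in fasted *Nts*-/- livers. Fasted against fed, it was 1.31-fold higher in *Nts*+/+ and 2.78-fold higher in *Nts*-/- mice, and *Nts*-/- against *Nts*+/+ it was 0.594-fold in fed and 1.26-fold in fasted mice. The groups stayed apart in each of these 4 comparisons. *Tomm40l* went the other way from *Nr1i3* with fasting in *Nts*+/+ livers (log2 fold change -1.39 ± 0.41, edgeR adjusted p = 0.042), a call that was lost without any one of 8 of the 12 mice (254, 257, 323, 265, 282, 322, 277 or 284, highest adjusted p = 0.141). In *Nts*-/- livers its log2 fold change was -0.66 ± 0.40 (edgeR adjusted p = 0.303).

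**Figure D2:**
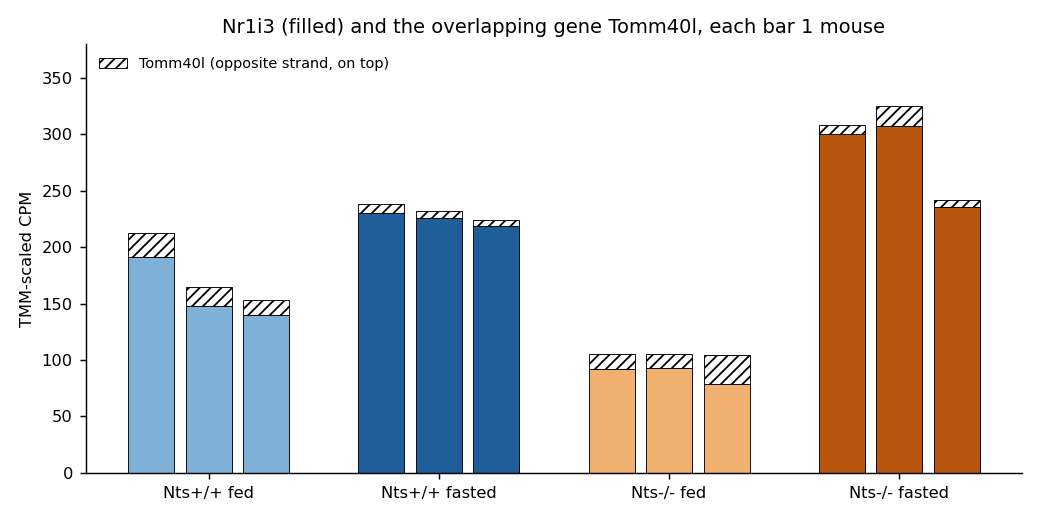
TMM-scaled CPM of Nr1i3 (filled) with the overlapping gene Tomm40l (hatched) stacked on it, each bar 1 mouse. The height of the stack is between 104 and 105 CPM in the 3 fed mice labelled Nts-/- and between 242 and 325 CPM in the 3 fasted ones, with both Nts+/+ groups between.

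*Nr1i2* (ENSMUSG00000022809, chr16:38248323-38294824, minus strand) was the lowest of the 4 in CPM. It stood at 73.4, 60.6 and 66.3 CPM in fed *Nts*+/+ livers, 86.1, 53.6 and 71.6 CPM in fasted *Nts*+/+ livers, 49.7, 41.6 and 75.9 CPM in fed *Nts*-/- livers and 57.7, 68.8 and 68.4 CPM in fasted *Nts*-/- livers. All groups overlapped, and fed *Nts*-/- mouse 319 was above every fasted *Nts*-/- mouse while its group mates were below them. The log2 fold change with fasting was 0.08 ± 0.21 in *Nts*+/+ (95% interval -0.37 to 0.53) and 0.22 ± 0.21 in *Nts*-/- livers (-0.23 to 0.68). Between genotypes it was -0.26 ± 0.21 in fed (-0.71 to 0.19) and -0.12 ± 0.21 in fasted livers (-0.57 to 0.34). These intervals still allow changes of PXR transcript of the size seen for CAR with fasting in *Nts*+/+ mice.

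*Rxra* (ENSMUSG00000015846, chr2:27676440-27762957, plus strand) varied least. It stood at 293, 332 and 301 CPM in fed *Nts*+/+ livers, 313, 332 and 346 CPM in fasted *Nts*+/+ livers, 325, 289.7 and 289.9 CPM in fed *Nts*-/- livers and 290, 322 and 373 CPM in fasted *Nts*-/- livers. No pair of groups separated. The log2 fold changes were 0.10 and 0.12 with fasting in *Nts*+/+ and *Nts*-/- livers, and -0.03 and -0.01 between genotypes in fed and fasted livers, each ± 0.13 (SE). The 4 intervals (95%) lay between -0.31 and 0.40.

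*Por* (ENSMUSG00000005514, chr5:135670033-135735326, plus strand) was higher in every fasted than in every fed mouse. It stood at 264, 275 and 312 CPM in fed *Nts*+/+ livers, 773, 762 and 828 CPM in fasted *Nts*+/+ livers, 276, 271 and 254 CPM in fed *Nts*-/- livers and 667, 716 and 634 CPM in fasted *Nts*-/- livers. Fed groups overlapped, and the fasted *Nts*-/- mice were all below the fasted *Nts*+/+ mice. The log2 fold change with fasting was 1.47 ± 0.12 in *Nts*+/+ livers (2.77-fold, 95% interval 1.21 to 1.74) and 1.33 ± 0.12 in *Nts*-/- livers (2.52-fold, 1.07 to 1.59), and the difference between the responses was -0.14 ± 0.17 (-0.50 to 0.22). Between genotypes it was -0.09 ± 0.12 in fed (-0.34 to 0.17) and -0.23 ± 0.12 in fasted livers (-0.48 to 0.03). The overlapping genes *Gm16061* and *Gm43091* had at most 2 counts in any mouse, and no annotated gene overlapped *Nr1i2* or *Rxra*.

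Of 13812 genes tested, 18.1% passed an adjusted p of 0.05 in edgeR for fasting in *Nts*+/+ livers (8.91% higher and 9.19% lower) and 16.8% in *Nts*-/- livers (7.7% higher and 9.14% lower). Without *Nts*+/+ mouse 254, 257 or 282 the first count fell from 2501 genes to 1326, 1596 or 1224, and without *Nts*-/- mouse 277, 284 or 290 the second fell from 2326 to 1358, 1523 or 1365. *Nr1i3* and *Por*, 2 of the 4 members, were among the called genes in both comparisons, all higher. For *Nr1i3* in *Nts*+/+ mice that call was lost without any one of mice 257, 323, 265, 282 or 322, with upper quartile normalization and in the fit of only the 6 mice compared. Fed and fasted groups were apart in 36% of genes in *Nts*+/+ and 35.2% in *Nts*-/- livers, and in 2 of the 4 members in each. Since the members were picked with these values known, their calls and separation are descriptions and no test of them.

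Between genotypes, edgeR called 0% of genes in fed livers, 0% in fasted livers and 0% for the difference of the fasting responses, with 876, 685 and 663 genes at an unadjusted p under 0.05. DESeq2 called 0.0579% (8 genes), 0.029% (4 genes) and 0.0217% (3 genes). No member was called by edgeR, and *Nr1i3* was the 1 member called by DESeq2 in fed livers and for the difference of the responses. The groups were apart in 10.7% of genes in fed and 12.2% in fasted livers, with *Nr1i3* among them in both and *Por* in the fasted comparison. Since the members were picked with these contrasts known, nothing is read from the counts.

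**Figure D3:**
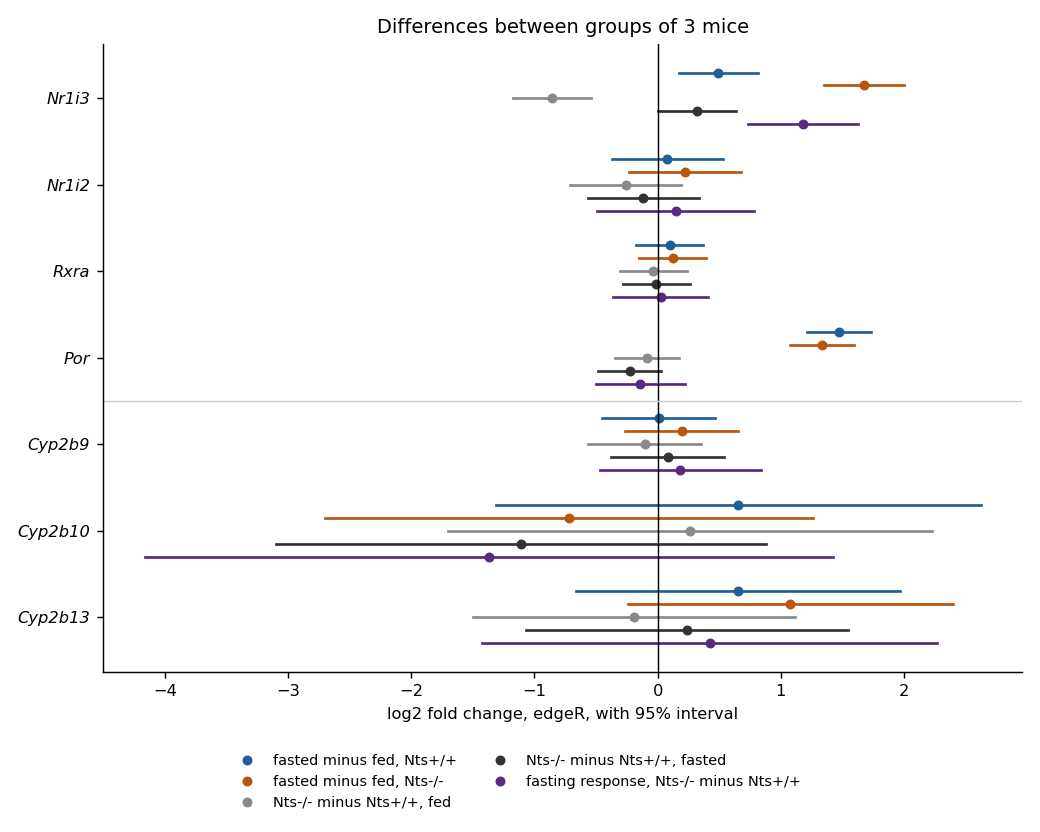
Log2 fold changes from edgeR with 95% intervals (n = 3 against 3) of the 4 members and, under the line, of the 3 Cyp2b genes with enough counts. The fasting response of Nr1i3 in mice labelled Nts-/- (1.68) and both responses of Por (1.47 and 1.33) lie furthest from 0 among the members, while every interval of a Cyp2b gene includes 0.

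Levels can be set side by side between genes once they are divided by the length of the gene's exons. Per kilobase, *Nr1i3* averaged 34.4 ± 5.97 CPM (SD, n = 3) in fed *Nts*+/+, 48.4 ± 1.24 in fasted *Nts*+/+, 19.0 ± 1.71 in fed *Nts*-/- and 60.6 ± 8.47 in fasted *Nts*-/- livers. *Nr1i2* averaged 24.7 ± 2.37, 26.1 ± 6.01, 20.6 ± 6.63 and 24.1 ± 2.33 CPM per kilobase in the same order. *Rxra* averaged 44.9 ± 3.00, 48.1 ± 2.42, 43.9 ± 2.93 and 47.8 ± 6.07 CPM per kilobase. With the longest transcript in place of the union of exons, *Nr1i3* averaged 37.0, 52.1, 20.4 and 65.2, *Nr1i2* 25.8, 27.3, 21.6 and 25.2, and *Rxra* 56.4, 60.4, 55.1 and 59.98 CPM per kilobase.

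Per kilobase and mouse by mouse, the ratio of *Nr1i3* to *Nr1i2* was 1.39 ± 0.149 (SD, n = 3) in fed and 1.93 ± 0.467 in fasted *Nts*+/+ livers, and 0.996 ± 0.357 in fed and 2.54 ± 0.513 in fasted *Nts*-/- livers. The ratio of *Rxra* to *Nr1i3* was 1.34 ± 0.263 in fed and 0.995 ± 0.0751 in fasted *Nts*+/+ livers, and 2.32 ± 0.201 in fed and 0.809 ± 0.225 in fasted *Nts*-/- livers. In fed *Nts*-/- livers every mouse had at least 2.10 times as much *Rxra* as *Nr1i3* per kilobase, and in every other group the ratio was at most 1.52. *Por* stood at 55.5 ± 4.96, 154 ± 6.89, 52.2 ± 2.17 and 131 ± 8.09 CPM per kilobase in the same order of groups as above, and at 96.6, 268, 90.9 and 229 CPM per kilobase of its longest transcript.

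Among the 49 nuclear receptor genes, *Hnf4a*, a master regulator of hepatocyte genes, had the highest level in all 4 groups (92.4 to 129 CPM per kilobase). *Rxra* was at rank 2 in both fed groups and 3 in both fasted groups. *Nr1i3* was at rank 3 in fed and 2 in fasted *Nts*+/+ livers, and at rank 7 in fed and 2 in fasted *Nts*-/- livers. By the union of exons in fed *Nts*-/- livers, *Nr1i3* did not differ beyond the spread between mice from its neighbours *Nr1h3*, *Nr1h4* and *Nr1i2*. *Nr1h3*, which encodes LXRα, stood at 19.5 ± 2.16 and *Nr1h4*, which encodes the bile acid receptor FXR, at 19.7 ± 3.10. By the longest transcript, *Nr1i3* (20.42 ± 1.843) was below *Nr1h3* (31.61 ± 3.499) and *Nr1h4* (36.13 ± 5.673) there by more than that spread. *Nr1i3* still did not differ beyond the spread from *Nr1i2* (21.58 ± 6.931). In fasted *Nts*+/+ livers *Nr1i3* and *Rxra* were within their spread of each other by the union of exons, whereas by the longest transcript *Rxra* was above *Nr1i3* in all 3 mice (ratio 1.16 ± 0.0876). With the longest transcript in place of the union of exons, *Nr1i3* was at rank 4, 4, 8 and 2 in the order of groups above, and *Nr1i2* moved from ranks 4, 5, 4 and 5 to ranks 8, 7, 7 and 6. *Rxra* was then at rank 2, 2, 2 and 3.

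**Figure D4:**
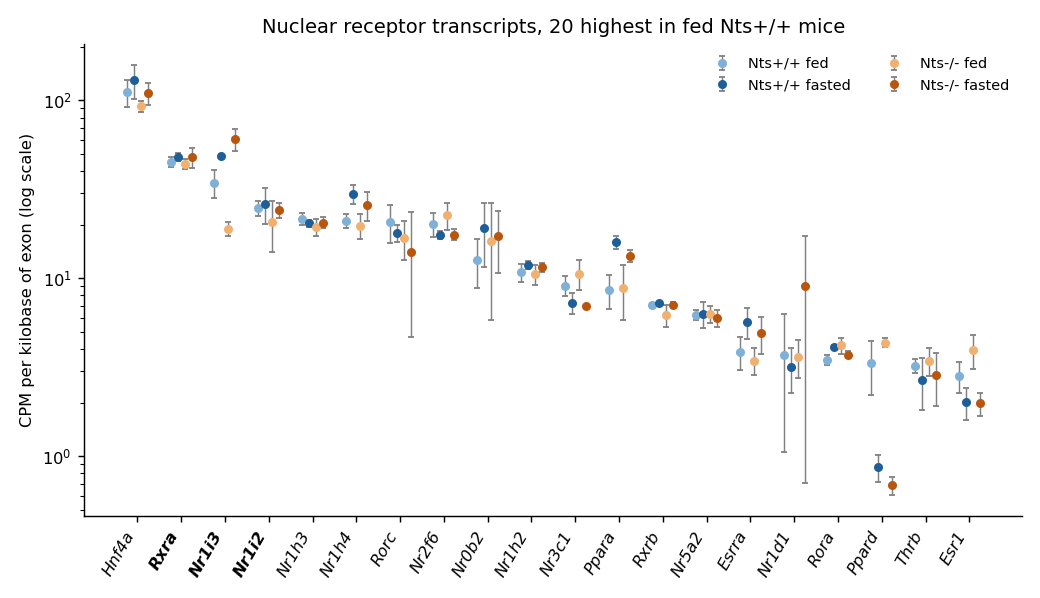
Mean CPM per kilobase of exon (log axis) of the 20 nuclear receptor genes highest in fed Nts+/+ livers, with SD whiskers (n = 3), in the 4 groups. The 3 receptor members are in bold. Nr1i3 spans 19.0 to 60.6 CPM per kilobase between groups, whereas Rxra stays between 43.9 and 48.1, and Ppard is lower and Ppara higher in fasted livers.

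Of the other 46 nuclear receptors, 36 had enough counts. In *Nts*+/+ livers 3 rose and 1 fell with fasting (median log2 fold change 0.02), and in *Nts*-/- livers 3 rose and 3 fell (median -0.05), beside medians of -0.0032 and -0.011 over all genes tested. The shares of all genes tested that were called were 18.1% and 16.8%. *Ppard*, a fatty acid-sensing receptor, fell in both genotypes, by 1.93 on the log2 scale in *Nts*+/+ (SE 0.21, edgeR adjusted p = 0.000123) and by 2.67 in *Nts*-/- livers (SE 0.22, edgeR adjusted p = 1.05e-05). *Esrrg*, an orphan receptor of energy metabolism, rose in *Nts*+/+ livers (1.46 ± 0.42, edgeR adjusted p = 0.033), a call lost without mouse 254, 257, 323, 265 or 282. *Nr1d2*, a clock repressor, rose in *Nts*-/- livers (1.22 ± 0.36, edgeR adjusted p = 0.039), a call lost without any one of 8 mice (257, 265, 282, 322, 277, 303, 290 or 295), and there fasted mouse 295 was the highest at 49.4 CPM against 15.4 and 25.3 CPM in its group mates. The other calls, named after their values were seen or described with the partners of RXRα, were *Nr1h4* and *Ppara* in *Nts*+/+ livers and *Nr4a2*, *Pparg*, *Nr3c1* and the estrogen receptor gene *Esr1* in *Nts*-/- livers, the last falling by 0.99 (SE 0.20, edgeR adjusted p = 0.0049). The count of called receptors was 1 without *Nts*+/+ mouse 254 and 2 without 257, 265 or 282 in *Nts*+/+ livers, and 3 without *Nts*-/- mouse 277 and 2 without 303 or 290 in *Nts*-/- livers.

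Of 16 RXR isotypes and other partners of RXRα, 15 had enough counts, all but the vitamin D receptor gene *Vdr*. In *Nts*+/+ livers 2 rose and 1 fell (median -0.05), and in *Nts*-/- livers 2 rose and 1 fell (median 0.08). Of all genes tested, 18.1% and 16.8% were called. Beside *Ppard*, *Ppara*, which drives fatty acid oxidation in fasting, rose in *Nts*+/+ livers (0.89 ± 0.21, edgeR adjusted p = 0.012, but 0.055 without mouse 254). *Pparg*, of lipid storage, rose in *Nts*-/- livers (0.67 ± 0.20, edgeR adjusted p = 0.038), a call lost without mouse 277, 303, 284, 290 or 295. *Nr4a2* also rose there (1.77 ± 0.55, edgeR adjusted p = 0.043), at levels no higher than 0.962 CPM, and its call was lost without any one of 7 mice (254, 257, 282, 277, 303, 284 or 290). The third call in *Nts*+/+ livers, named after its values were seen, was *Nr1h4* (0.51 ± 0.16, edgeR adjusted p = 0.042), lost without mouse 254, 257, 323, 265, 282 or 277. The count was 1 without mouse 254 in *Nts*+/+ and 1 without mouse 303, 284 or 290 in *Nts*-/- livers.

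The 5 *Cyp2b* genes are given for context, since *Cyp2b10* is the usual readout of CAR. *Cyp2b10* stood at 39.7, 48.5 and 16.2 CPM in fed *Nts*+/+ livers, 97.5, 57.2 and 10.2 CPM in fasted *Nts*+/+ livers, 30.1, 56.1 and 39.4 CPM in fed *Nts*-/- livers and 11.5, 52.9 and 12.1 CPM in fasted *Nts*-/- livers. The groups overlapped throughout, and in fasted *Nts*-/- livers, where *Nr1i3* was highest, *Cyp2b10* was at 11.5 and 12.1 CPM in mice 284 and 295 but at 52.9 CPM in mouse 290, which had the highest *Nr1i3* of all 12 mice. Its log2 fold change with fasting was 0.65 ± 0.86 in *Nts*+/+ (95% interval -1.32 to 2.62) and -0.72 ± 0.87 in *Nts*-/- livers (-2.70 to 1.26), at edgeR adjusted p of 0.647 and 0.623. These intervals are too wide to tell a 2-fold change from none.

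*Cyp2b13* spanned 172 to 255 CPM in fed and 110.3 to 508 CPM in fasted *Nts*+/+ livers, and 102 to 325 CPM in fed and 249 to 515 CPM in fasted *Nts*-/- livers, with log2 fold changes of 0.65 ± 0.58 and 1.08 ± 0.59 (edgeR adjusted p = 0.485 and 0.248). *Cyp2b9*, a P450 that female mice express more than males, spanned 328 to 581 CPM over all 12 mice. Its log2 fold changes were 0.01 ± 0.21 and 0.19 ± 0.21 (edgeR adjusted p = 0.983 and 0.579). None of the 3 was called between genotypes either, and *Cyp2b19* and *Cyp2b23* had 0 counts in every mouse. The *Cyp2b* genes are close copies of each other, so reads may have been split between them. Within fed and within fasted mice, the genotypes did not overlap in *Nr1i3*, so no pooled correlation of *Nr1i3* with these genes is given.

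The 36 genes listed as CAR and PXR targets, which include *Cyp2b9*, *Cyp2b10* and *Cyp2b13*, all had enough counts. In *Nts*+/+ livers 5 rose and 6 fell with fasting (median log2 fold change 0.10), and in *Nts*-/- livers 6 rose and 7 fell (median 0.12). Over all genes tested, 8.91% rose and 9.19% fell in *Nts*+/+ livers, and 7.7% rose and 9.14% fell in *Nts*-/- livers. The genes that rose in *Nts*+/+ livers, all but the first named after their values were seen, were *Gadd45b*, the transporters *Slco1a4* and *Abcc3*, *Cyp3a25* and the sulfotransferase *Sult1d1*, and the calls of the last 2 were lost without mouse 254, 323 or 265 and without mouse 254, 257, 265 or 282. *Gadd45b*, a stress-response gene that CAR induces, rose by 2.07 ± 0.45 in *Nts*+/+ (edgeR adjusted p = 0.011) and 1.69 ± 0.46 in *Nts*-/- livers (edgeR adjusted p = 0.028), the latter call being lost without mouse 277, 303, 290 or 295. *Gstm3*, a glutathione transferase, fell by 2.50 (SE 0.62) and 2.76 (SE 0.63) at edgeR adjusted p of 0.025 and 0.018, and *Cyp2c55*, a P450 of low level here, fell by 2.71 and 2.29 (SE 0.57 each) at 0.0086 and 0.019. *Thrsp*, a lipogenic gene, fell by 3.32 in *Nts*-/- livers (SE 0.75, edgeR adjusted p = 0.018), a call lost without mouse 284 or 290. The *Gstm3* call was lost without mouse 254, 257, 282 or 322 in *Nts*+/+ and without 303, 284 or 295 in *Nts*-/- livers, as was that of *Cyp2c55* without the last 3. The list's count in *Nts*+/+ livers was 4 without mouse 254, 5 without 257 or 282 and 7 without 322, and in *Nts*-/- livers it was 8 without 303 or 295 and 7 without 284.

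No gene of these lists was called between genotypes by edgeR, and for the CAR and PXR targets 1 of 36 was under an unadjusted p of 0.05 in fed and 1 in fasted livers. The median log2 fold change of the targets, *Nts*-/- against *Nts*+/+, was -0.06 in fed and 0.01 in fasted livers, beside 0.01 and -0.0087 over all genes. *Gstm* and *Cyp2c* genes have near-identical relatives, so their counts are uncertain in the same way as those of *Cyp2b* genes.

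Of 17 transcriptional regulators of the receptor genes, 3 rose in *Nts*+/+ (median 0.32), and 3 rose and 1 fell in *Nts*-/- livers (median 0.25). Among all genes tested, 18.1% were called in *Nts*+/+ and 16.8% in *Nts*-/- livers. *Tef*, a D-box factor of the clock output, rose in both (0.89 ± 0.25 and 1.02 ± 0.25, edgeR adjusted p = 0.030 and 0.016), calls lost without mouse 254, 257, 265 or 282 and without mouse 277, 319 or 295. Its relative *Dbp* rose in *Nts*-/- livers (2.53 ± 0.61, edgeR adjusted p = 0.015), where fasted mouse 295 had 8.84 CPM against 1.86 and 2.34 CPM in its group mates, and the call was lost without mouse 277. *Cebpb*, of the fasting and acute-phase programs, rose in *Nts*+/+ livers (1.22 ± 0.35, edgeR adjusted p = 0.036), a call lost without mouse 257, 323, 282 or 322. *Nr1d2*, described above, was the third that rose in *Nts*-/- livers. The remaining calls, named after their values were seen, were *Hlf* in *Nts*+/+ livers (0.78 ± 0.17, edgeR adjusted p = 0.0074) and the glucocorticoid receptor gene *Nr3c1* in *Nts*-/- livers, which fell by 0.61 (SE 0.15, edgeR adjusted p = 0.014), a call lost without mouse 277, 303, 284 or 290. The count was 1 without mouse 282 in *Nts*+/+ livers, and 0 without mouse 277 and 2 without mouse 295 in *Nts*-/- livers.

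Of 13 genes of cytoplasmic retention and signalling of CAR, 2 rose in *Nts*+/+ (median 0.03) and 2 rose and 1 fell in *Nts*-/- livers (median 0.0034). Beside *Gadd45b*, *Ppp2ca*, the catalytic subunit of the phosphatase that releases CAR, rose slightly in both genotypes (0.42 ± 0.12 and 0.47 ± 0.12, edgeR adjusted p = 0.024 and 0.015), calls lost without mouse 254, 257, 265 or 282 and without mouse 277 or 284. *Egfr*, whose signalling keeps CAR phosphorylated, fell by 0.78 in *Nts*-/- livers (SE 0.25, edgeR adjusted p = 0.0498), a call lost without any one of 7 mice (254, 257, 282, 277, 284, 290 or 295). The count was 1 without mouse 254, 265 or 282 in *Nts*+/+ livers, and 0 without 277 and 1 without 284, 290 or 295 in *Nts*-/- livers. Of 15 coactivators and corepressors, edgeR called 0 in both comparisons, with 4 and 0 at an unadjusted p under 0.05 (median 0.21 and 0.03), and 1 without *Nts*+/+ mouse 322 or *Nts*-/- mouse 319. For both lists, the shares called over all genes tested were 18.1% in *Nts*+/+ and 16.8% in *Nts*-/- livers.

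While *Por* was higher in fasted livers, none of the 14 other genes of linked electron transfer passed the test as higher, and 5 fell in each genotype (median -0.26 in *Nts*+/+ and -0.19 in *Nts*-/- livers). Over all genes tested, 8.91% rose and 9.19% fell in *Nts*+/+ livers, and 7.7% rose and 9.14% fell in *Nts*-/- livers. Nothing is read from the lack of a higher gene in so short a list. *Sqle*, squalene epoxidase, which takes its electrons from POR in cholesterol synthesis, stood at 69.98 to 115 CPM in fed and 9.46 to 16.0 CPM in fasted *Nts*+/+ livers, and at 73.2 to 206 CPM in fed and 9.44 to 13.4 CPM in fasted *Nts*-/- livers. It fell by 2.85 (SE 0.37) and 3.69 (SE 0.38) on the log2 scale at edgeR adjusted p of 0.000749 and 0.000167. *Cyp51*, the P450 of the same pathway, fell by 2.18 (SE 0.29) and 2.88 (SE 0.30) at 0.000553 and 0.0001.

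The cytochrome b5 system is the other route of electrons to microsomal enzymes. Its microsomal form *Cyb5a* was not called, whereas *Cyb5b* and *Cyb5r3* were lower in both genotypes. *Cyb5b*, the outer mitochondrial membrane form of cytochrome b5, stood at 560.4, 667 and 456 CPM in fed and 190.3, 205 and 196 CPM in fasted *Nts*+/+ livers, and at 616, 731 and 432 CPM in fed and 179, 158 and 204 CPM in fasted *Nts*-/- livers. It fell by 1.51 and 1.72 (SE 0.19 each, edgeR adjusted p = 0.000276 and 9.9e-05). *Cyb5r3*, the NADH-dependent b5 reductase, fell by 1.26 and 1.41 (SE 0.18 each, edgeR adjusted p = 0.000458 and 0.000176). No call on *Sqle*, *Cyp51*, *Cyb5b* or *Cyb5r3* was lost in any of the 12 fits that left out 1 mouse. The microsomal form *Cyb5a* had log2 fold changes of -0.04 ± 0.19 and 0.44 ± 0.19 (edgeR adjusted p = 0.907 and 0.123). The fifth gene that fell, named after its values were seen, was *Fdxr*, which feeds mitochondrial P450s, by 1.06 (SE 0.18, edgeR adjusted p = 0.0018) and 0.58 (SE 0.18, edgeR adjusted p = 0.037), the second call being lost without mouse 254, 303, 319, 284 or 290.

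**Figure D5:**
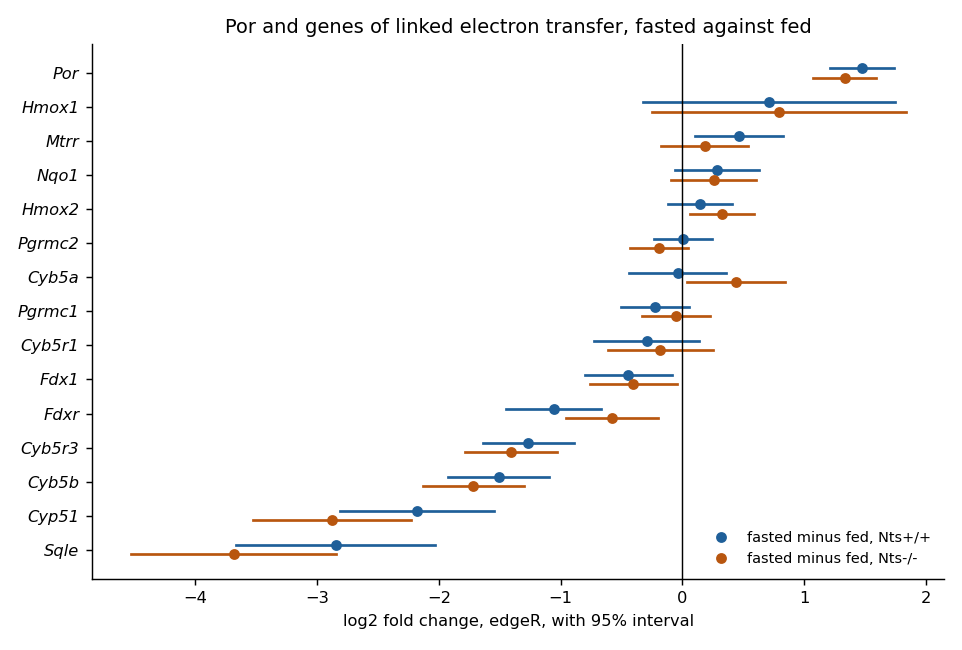
Log2 fold changes of fasted against fed livers from edgeR with 95% intervals (n = 3 against 3) for Por and 14 genes of linked electron transfer, in mice labelled Nts+/+ and Nts-/-. Por lies at 1.47 and 1.33, while Fdxr, Cyb5r3, Cyb5b, Cyp51 and Sqle lie under 0 in both genotypes, down to -2.85 and -3.69 for Sqle.

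The transcripts of 93 microsomal P450 genes, summed per kilobase, were set against *Por* in each mouse, since POR serves all of these enzymes. They were picked by symbols of the form Cyp, number, letter and number, leaving out mitochondrial P450 genes. *Cyp51* does not have this form and is not in the sum. The sum over *Por* was 185, 163 and 182 in fed and 128, 123 and 101 in fasted *Nts*+/+ livers, and 148, 174 and 129 in fed and 142, 121 and 143 in fasted *Nts*-/- livers. In *Nts*+/+ livers fed and fasted mice did not overlap and the mean ratio went from 176 ± 11.5 to 117 ± 14.5 (SD, n = 3), a fold of 0.664, whereas in *Nts*-/- livers they overlapped (151 ± 22.7 and 135 ± 12.7, a fold of 0.900). Whether these folds differ between genotypes was not tested. The P450 sum itself was 1.83-fold higher in fasted *Nts*+/+ and 2.25-fold higher in fasted *Nts*-/- livers, with no overlap (two-sided exact permutation p = 0.1 each, the smallest that 3 mice against 3 allow).

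A few genes made up much of that sum. In fed *Nts*+/+ livers the highest shares were those of *Cyp2e1* (21.5%), *Cyp2c69* (8.68%) and *Cyp3a11*, the main PXR target (7.04%), with *Cyp4a14* at 4.51% and *Cyp4a10* at 3.30%. In fed *Nts*-/- livers they were those of *Cyp2e1* (19.6%), *Cyp2c69* (8.14%) and *Cyp3a11* (6.18%). In fasted livers *Cyp4a14* held 23.9% in *Nts*+/+ and 23.4% in *Nts*-/-, *Cyp2e1* 21.7% and 23.4%, *Cyp4a10* 18.7% and 17.9%, and *Cyp3a11* 5.78% and 4.38%. The share of *Cyp3a11* was thus smaller in fasted livers, but its mean level was higher. It averaged 3593 CPM fed and 5404 CPM fasted in *Nts*+/+ livers, where the groups overlapped. In *Nts*-/- livers it averaged 2534 and 4050 CPM, with no overlap. *Cyp4a14*, a fatty acid hydroxylase under PPARα, stood at 775 to 1827 CPM in fed and 10130 to 11790 CPM in fasted livers. Of the 68 P450 genes with enough counts, 11 rose and 12 fell in *Nts*+/+ livers and 11 rose and 10 fell in *Nts*-/- livers. Over all genes tested, 8.91% rose and 9.19% fell in *Nts*+/+ livers, and 7.7% rose and 9.14% fell in *Nts*-/- livers.

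The genes most like each member over the 12 mice were found by Pearson's r of log2 CPM, given as a description because the mice share feeding state and genotype. For *Nr1i3* they were *Rdh9* (0.931), a retinol dehydrogenase, *Eci2* (0.930), of unsaturated fatty acid oxidation, *Psmc1* (0.922) of the proteasome, *Ube2e2* (0.922) and *Casz1* (0.919). *Rdh9* repeated the order of the groups in *Nr1i3* at its low end, with 38.9 to 52.1 CPM in fed *Nts*-/- and 72.8 to 87.6 CPM in fed *Nts*+/+ livers, while the fasted groups overlapped at 112 to 165 CPM. *Eci2* stood at 109.9 to 132 CPM in fed *Nts*-/-, 149 to 217 CPM in fed *Nts*+/+, and 286 to 364 CPM in fasted livers.

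For *Por* the closest were *Glrx* (0.990), glutaredoxin, *Cyp4a14* (0.988), *Plaa* (0.986), *Gfra1* (0.984) and *Eme2* (0.984). *Glrx* stood at 26.8 to 49.3 CPM in fed and 110.5 to 148 CPM in fasted livers, with the fasted *Nts*-/- mice all below the fasted *Nts*+/+ mice, as for *Por*. For *Nr1i2* those among the closest that are reported were *Cdk9* (0.864), *Gm6158* (0.860), *Rab24* (0.846) and *Qars* (0.844), and for *Rxra* they were *Ttc7b* (0.825), *Fbxo34* (0.824), *Actr1a* (0.824), *Tmed10* (0.820) and *Wdtc1* (0.814). Among the members, *Nr1i3* and *Por* had an r of 0.829 over all 12 mice and every other pair one of at most 0.485. Both genes were higher in every fasted than in every fed mouse. This pooled r therefore does not show how they relate within a feeding state.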

How the data were processed

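The authors deposited 1 table of expected counts, which are estimated numbers of reads, fractional in 7.94% of values and unscaled between mice, with GRCm38 positions. The submitters' processing notes name Trimmomatic and RSEM without versions, and the aligner, annotation and use of strand are not given in the sources used here. Columns of other samples number 0.

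Counts were rounded, and edgeR 4.0.16 (TMM, filterByExpr, robust quasi-likelihood fit of 1 mean per group, R 4.3.3) tested 13812 genes in 5 contrasts with Benjamini-Hochberg adjustment. SE is the log2 fold change over the root of F, with 95% intervals. Each mouse is 1 replicate, so p-values weigh the differences between groups against the spread between mice. All 12 carry the same batch label. Floors cover counting error only. Exon lengths came from GENCODE vM39 by Ensembl identifier (44565 genes), with none of its coordinates used, and promoters from RefSeq. Protein sequences were not used here. Motifs were matched by letters.

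Members and lists were chosen with earlier results of these data known. Named genes are the members, their overlapping genes, tested *Cyp2b* genes, *Nts*, up to 4 genes per list with the largest change among those called with fasting, and the 5 genes most like each member, of which 1 is not reported here. Since *Por* is a member, no test of its ratio to the P450 sum is given. No correlation with *Nr1i3* within a feeding state was printed, because the genotypes did not overlap in *Nr1i3*. Alternatives were RLE and upper quartile normalization, DESeq2 1.42.0 (Wald test), a stricter filter (10 or more counts in each mouse), fits with no count filter or of only the 6 mice compared, leaving out each mouse, and transcript length. The steps were tested on simulated data.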

Additional observations from a re-analysis of the deposited data

How the results depend on the processing

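The log2 fold changes of the 4 members moved by less than 1 SD between mice under every alternative (356 values), from 0.41 to 0.64 for *Nr1i3* with fasting in *Nts*+/+ and from 1.60 to 1.79 in *Nts*-/- livers. Values for *Nr1i2* and *Rxra* crossed 0 in 6 of their 10 comparisons. The 4 folds of the P450 sum over *Por* moved by less than their SD with the longest transcript or with no length, while 9 of the 16 levels per kilobase of the members moved by more than 1 SD with the longest transcript, all 4 of *Por* among them.

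Leaving out 1 mouse gave 1224 to 2770 genes called for fasting in *Nts*+/+ and 1358 to 2631 in *Nts*-/- livers, and 0 to 2 between genotypes when fed and 0 to 1 for the difference of responses. DESeq2 called 8, 4 and 3 genes between genotypes when fed, when fasted and for the difference, where edgeR called 0, and edgeR called 1 when fed with no count filter and 1 when fasted with only the 6 mice compared. The leave-one-out ranges of called list genes in *Nts*+/+ and *Nts*-/- livers were 4 to 11 and 7 to 14 for CAR and PXR targets, 1 to 3 and 1 to 4 for RXR partners, 1 to 4 and 0 to 5 for regulators, 1 to 2 and 0 to 4 for retention and signalling, 0 to 1 in both for coregulators, and 1 to 5 and 2 to 7 for nuclear receptors. The regulators gave 1 in *Nts*+/+ livers with no count filter and 7 in *Nts*-/- livers with DESeq2, and retention and signalling gave 1 in *Nts*+/+ livers with only the 6 mice compared and 1 in *Nts*-/- livers with no count filter. The cause was not tested. Counts for POR partners and *Cyp2b* genes moved by less than 1.5 times.

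No paired analysis was possible because every mouse has its own number and none is shared between groups. The relations of *Nr1i3* with *Cyp2b* genes and *Por* planned within feeding states, and their alternative without the mice furthest out, are not given because the genotypes did not overlap in *Nr1i3*. With 3 mice a group, the intervals given limit what can be told apart, most of all for *Cyp2b10*.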
